A study of Homo sapiens with 8 samples.

Results

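The autophagy and mitophagy machinery is described here in MonoMac 6, an established human line derived from an acute monocytic leukaemia. The genes were chosen by symbol from a list of 45, of which 42 have a row in the deposited table of 11530 genes. ULK2, ATG101 and MAP1LC3A have no row under these symbols. All 42 passed the filter on low values, which asked 4 libraries or more for a linear value no lower than 1. Rows were picked by symbol alone, but the list was drawn up with earlier results of these data known, which may have shaped it.

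RNA was sequenced in bulk from 8 libraries. In the APRIL group, 4 libraries came from cells kept for 24 h in serum-free RPMI with human APRIL at 100 ng/mL. APRIL, the product of TNFSF13, is a ligand of the TNF family. The control group holds 4 libraries without added APRIL, and the labels do not state whether its medium lacked serum over the same hours. Both groups had unnamed baseline cytokines. APRIL and a possible difference in serum cannot be told apart here. All libraries came from 1 cell line, and the labels do not say whether they were separate cultures, so a p-value speaks only to the scatter among the 8 libraries, part of which may be technical.

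Macroautophagy encloses cytoplasm in a double membrane, the autophagosome, and delivers it to the lysosome. A kinase complex around ULK1 starts the process, a lipid kinase complex around PIK3C3 marks the site with phosphatidylinositol 3-phosphate, and lipid transfer proteins feed the growing membrane. Conjugation enzymes related to the ubiquitin system attach LC3 and GABARAP proteins to that membrane, and receptors bridge them to cargo. Mitophagy is the removal of mitochondria by the same route, called either by the kinase PINK1 or by receptors in the outer mitochondrial membrane. Much of this control acts on proteins and their modification, which RNA levels do not show.

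The values are log2 levels as deposited. A difference is the mean of the APRIL libraries minus the mean of the control libraries on that scale, given with the standard error of limma's fit to 4 libraries a group. The deposited values divide the reads of each gene by a number that did not track transcript length (Spearman's rho = -0.0036 over 10651 genes), so levels are compared between libraries within a gene and never between genes. The column headers name the group and give no replicate number. Libraries are called APRIL columns 1 to 4 and control columns 1 to 4 in the order of the table. Recovered reads per library ran from 928040 to 5308916 in the APRIL group and from 1373118 to 2948176 in the control group. APRIL column 3 was the shallowest library, and it held a median of 31.0 reads per autophagy gene, against 242.0 in APRIL column 2. In limma's library quality weights APRIL column 3 had the lowest weight, at 0.117, and control column 1 the next lowest, at 0.316. Of the 12 markers of a monocytic and myeloid line, 11 are in the table, with a median difference of +0.16 and 1 at an unadjusted p under 0.05. Their summed linear level ran from 2323 to 3737 with APRIL and from 2048 to 2404 in control, and its part in the results was not tested. Such a sum adds genes whose reads were divided by different numbers, so the highest deposited values weigh most. It is not a measure of cell content. Of the 17 markers of T and NK cells, erythroid cells and epithelial, stromal or endothelial cells, 0 are in the table. Of 5 B cell markers, 4 are in the table, with a median difference of +0.032 and summed linear levels of 98 to 124 with APRIL and 98 to 116 in control, and 0 had an unadjusted p under 0.05.

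PINK1 had the highest positive difference of the 42 genes, at +0.78 ± 0.19, and ATG2B the most negative, at -0.74 ± 0.29. RB1CC1, the scaffold of the initiation kinase complex, stood lower with APRIL at -0.61 ± 0.19. All 7 genes of the lipid kinase complex and omegasome had negative differences, with a median of -0.18, while 9 of 11 conjugation genes had positive ones, with a median of +0.11. None of these differences passed the test. In bulk RNA, a smaller number of cells with a transcript and less of it per cell cannot be told apart.

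By limma with Benjamini-Hochberg adjustment over 11257 genes, 0 of 42 genes passed an adjusted p of 0.05, and 0% of all tested genes did. limma-voom on the recovered reads also called 0 of the 42. At an unadjusted p under 0.05 there were 9 of 42 genes (21.4%), against 11.9% of all tested genes. Of these, 4 were higher with APRIL (6.25% of all tested genes were), namely PINK1, WIPI1, ATG4D and SQSTM1. The other 5 were lower with APRIL (5.69% of all tested genes were), namely ATG2B, RB1CC1, PIK3R4, TAX1BP1 and EPG5. Each of these 9 genes had an adjusted p of 0.400 by limma. The count depended on single libraries. Leaving out APRIL column 1 gave 6 of 42, 2 higher and 4 lower, against 10.2% of all tested genes. Leaving out APRIL column 2 gave 11, 4 higher and 7 lower, against 20%. Leaving out APRIL column 3 gave 4, 1 higher and 3 lower, against 9.28%. Leaving out APRIL column 4 gave 4, 2 higher and 2 lower, against 5.94%. For control column 1 it was 4, 2 higher and 2 lower, against 4.5%, and for control column 3 it was 3, 1 higher and 2 lower, against 7.22%. For control column 2 it was 7, 3 higher and 4 lower, against 9.38%. For control column 4 it was 7, 3 higher and 4 lower, against 10.8%. With library quality weights the count was 12, 5 higher and 7 lower, against 17%. With the trend in transcript length and GC content removed it was 6, 2 higher and 4 lower, against 8.23%. With APRIL column 3 and control column 1 both left out, 3 of 42 genes (7.14%) had an unadjusted p under 0.05, against 7.52% of all tested genes.

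Over all 42 genes the median difference was +0.076, against -0.0053 over all tested genes, with 24 positive and 18 negative. Without APRIL column 3 the median was +0.018, and without control column 4 it was +0.12. The 95% interval of a single gene reached 0.40 to either side at the median, and from 0.27 to 0.82 over the set. A gene whose interval includes 0 may therefore still differ by an amount of that size.

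**Figure D1:**
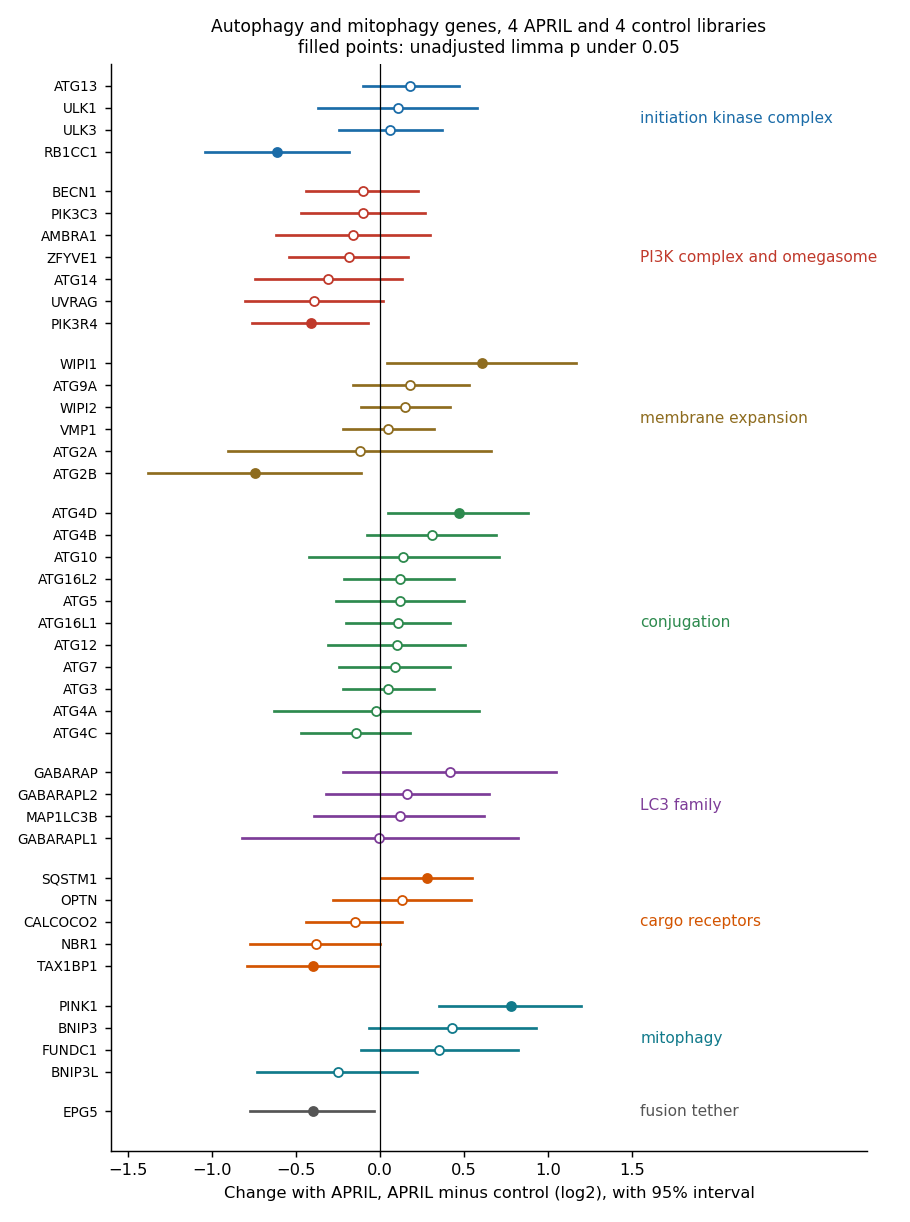
Difference between APRIL and control libraries for each of the 42 autophagy and mitophagy genes, on the log2 scale (horizontal axis), grouped by role, with points for limma estimates (filled at an unadjusted p under 0.05) and bars for their 95% intervals. PINK1 lies farthest to the right at +0.78 and ATG2B farthest to the left at -0.74, and all 7 genes of the lipid kinase complex and omegasome lie left of 0.

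The initiation group holds the kinases ULK1 and ULK3 and the subunits ATG13 and RB1CC1. RB1CC1, also called FIP200, is the large scaffold that holds the ULK1 complex together. Its log2 levels were 5.58, 6.16, 5.27 and 5.77 in the APRIL libraries and 6.59, 6.16, 6.24 and 6.24 in the control libraries. APRIL column 2 matched the lowest control library to the printed digits, and the other 3 APRIL libraries lay below all controls. The means were 5.69 ± 0.37 with APRIL and 6.31 ± 0.19 in control (SD, n = 4 each), a ratio of 0.65 with a 95% interval of -1.04 to -0.18 on the log2 scale (unadjusted p = 0.0099 and adjusted p = 0.400 by limma). Its reads ran from 25 to 299 per library. RB1CC1 was 1 of 2 genes, with PINK1, that had an unadjusted p under 0.05 by limma under every alternative that tested them. The alternatives reuse the same libraries and are not independent of each other. The share of all tested genes that met this rule was not counted. The difference of RB1CC1 was -0.34 with the trend in transcript length and GC content removed.

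The remaining initiation genes stayed nearer to 0. ULK1, the kinase that starts autophagy when nutrient signalling falls, had log2 levels of 3.22, 2.71, 2.53 and 3.11 with APRIL and of 2.35, 2.94, 2.84 and 3.0 in control. Its groups overlapped, with the highest value in APRIL column 1 and the lowest in control column 1, and the difference was +0.11 ± 0.21. ULK3, a related kinase, differed by +0.063 ± 0.14. ATG13, which links ULK1 to RB1CC1, differed by +0.18 ± 0.13. The partner of ATG13, ATG101, has a row under its older symbol C12orf44. That row was not counted among the 42, and its difference was +0.18 ± 0.19.

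The lipid kinase complex holds the catalytic subunit PIK3C3, the pseudokinase PIK3R4 and the scaffold BECN1, joined by ATG14 on forming autophagosomes or by UVRAG on later endosomal membranes. AMBRA1 regulates BECN1, and ZFYVE1 marks the omegasome, the membrane platform where autophagosomes grow. All 7 differences were negative, from -0.41 to -0.10, against 49.3% of all tested genes with a positive one. All 7 genes also had their lowest value in APRIL column 3, as did 32.9% of all tested genes. The group's median deviation from each gene's own mean was -0.0022, 0.065, -0.43 and -0.10 over the APRIL libraries, against 0.22, 0.14, 0.084 and 0.17 over the control libraries. APRIL column 3 thus lay farthest out. On this median the other 3 APRIL libraries lay below the 4 control libraries, the nearest at 0.065 against 0.084. Taken gene by gene, the groups lay apart for 1 of the 7, PIK3R4. Without APRIL column 3 the median difference of the group was -0.093, and AMBRA1 then stood at +0.032 and PIK3C3 at +0.0039.

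PIK3R4, also called VPS15, showed log2 levels of 5.96, 6.15, 5.53 and 5.84 with APRIL and of 6.36, 6.45, 6.18 and 6.16 in control. The groups did not overlap, the highest APRIL library lying just under the lowest control library. Groups lay apart in this direction for 2 of the 42 genes, PIK3R4 and NBR1, and for 4.19% of all tested genes. The difference of PIK3R4 was -0.41 ± 0.16 (unadjusted p = 0.0240 by limma), and it was -0.30 without APRIL column 3 and -0.24 with the length and GC trend removed.

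UVRAG was at 8.17, 8.28, 7.45 and 8.16 in the APRIL libraries and at 8.43, 8.22, 8.57 and 8.41 in the control libraries. APRIL column 3 stood apart, and without it the difference of -0.39 ± 0.18 was -0.20. The catalytic subunit PIK3C3 had 8.45, 8.67, 8.03 and 8.17 with APRIL and 8.65, 8.22, 8.29 and 8.55 in control, at -0.10 ± 0.17. Its groups overlapped, with APRIL columns 3 and 4 below all controls and APRIL column 2 just above them. BECN1, a haploinsufficient tumour suppressor in mice, had 4.74, 4.64, 4.24 and 4.48 with APRIL and 4.49, 4.81, 4.66 and 4.55 in control, also overlapping, at -0.10 ± 0.15. BECN1 shares 23.5% of its exonic bases with CNTD1 on the other strand. ATG14 differed by -0.31 ± 0.20, ZFYVE1 by -0.18 ± 0.16 and AMBRA1 by -0.16 ± 0.20.

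Membrane expansion is the work of the WIPI proteins, which read phosphatidylinositol 3-phosphate, the lipid transfer proteins ATG2A and ATG2B, and the scramblases ATG9A and VMP1. ATG2B and WIPI1 had the largest differences in this group, with opposite signs. ATG2B showed log2 levels of 7.70, 7.86, 6.51 and 7.35 with APRIL and of 8.54, 7.69, 8.13 and 8.03 in control. APRIL column 3 was far below the other libraries, with 10 reads, and control column 2 lay within the APRIL range. The difference was -0.74 ± 0.29 (unadjusted p = 0.0265 by limma), and -0.46 without APRIL column 3. With the length and GC trend removed it was -0.44, and with APRIL column 3 and control column 1 left out it was -0.31. ATG2A, its paralogue, differed by -0.12 ± 0.35.

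WIPI1, a reader of phosphatidylinositol 3-phosphate on early autophagosomal membranes, was at 2.89, 3.0, 3.30 and 3.48 with APRIL and at 2.84, 2.99, 2.54 and 1.87 in control. The groups overlapped at their edges, and control column 4 was the lowest library. The reads behind these values were 16, 33, 6 and 27 with APRIL and 11, 8, 8 and 8 in control. The difference was +0.61 ± 0.25 (unadjusted p = 0.0375 by limma), and +0.38 without control column 4. Of the exonic bases of WIPI1, 28.5% are shared with ARSG on the other strand. The libraries carry no strand, so reads of such pairs cannot be told apart, and ARSG itself differed by +0.18 ± 0.16.

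WIPI2, which recruits ATG16L1 to the membrane, had 6.58, 6.39, 6.74 and 6.62 with APRIL and 6.42, 6.48, 6.44 and 6.37 in control. Its APRIL libraries spread more widely than its controls and overlapped them, at +0.15 ± 0.12. ATG9A had 7.65, 7.58, 7.29 and 7.62 with APRIL and 6.97, 7.51, 7.47 and 7.44 in control, where control column 1 lay below all other libraries, at +0.18 ± 0.15. Without control column 1 the difference of ATG9A was +0.057. ATG9A shares 43.5% of its exonic bases with AC068946.2 on the same strand. VMP1, a membrane protein of the endoplasmic reticulum, differed by +0.048 ± 0.12.

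Conjugation joins ATG12 to ATG5 and LC3 proteins to lipid. ATG7 is the shared activating enzyme, ATG3 and ATG10 are the conjugating enzymes, ATG16L1 and ATG16L2 bind the ATG12 and ATG5 pair, and the ATG4 proteases trim LC3 proteins and release them from lipid. Of the 11 genes 9 had a positive difference, with a median of +0.11 and a range of -0.14 to +0.47. In 6 of 11 the highest library was APRIL column 3, as in 33.6% of all tested genes. Without APRIL column 3 the median was +0.029.

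ATG4D was the 1 conjugation gene with an unadjusted p under 0.05. It stood at 7.65, 7.11, 7.80 and 7.56 with APRIL and at 6.76, 7.27, 6.88 and 7.34 in control. Of the APRIL libraries 3 lay above all controls, and APRIL column 2 lay among the controls. The difference was +0.47 ± 0.19 (unadjusted p = 0.0320 by limma), and +0.031 with the length and GC trend removed. ATG4D shares 17.5% of its exonic bases with KRI1 on the other strand, and KRI1 differed by -0.27 ± 0.19. Of the other ATG4 proteases ATG4B differed by +0.31 ± 0.17, ATG4A by -0.020 ± 0.27 and ATG4C by -0.14 ± 0.15.

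The central conjugation enzymes lay close to 0 and overlapped between groups. ATG7 had 6.70, 6.80, 7.18 and 7.03 with APRIL and 6.71, 6.69, 7.07 and 6.90 in control, at +0.090 ± 0.15, with an interval of -0.24 to +0.42. ATG5 had 4.56, 4.60, 4.80 and 4.35 with APRIL and 4.83, 4.26, 4.25 and 4.48 in control, at +0.12 ± 0.17. ATG16L1 had 4.34, 4.37, 4.44 and 4.27 with APRIL and 4.0, 4.21, 4.46 and 4.33 in control, at +0.11 ± 0.14. With each library left out in turn, ATG7 ran from +0.0057 to +0.17 and ATG5 from +0.049 to +0.25. ATG16L1 then ran from +0.028 to +0.18. The intervals of these genes leave room for differences of the size seen elsewhere in the set. ATG10 differed by +0.14 ± 0.25, ATG16L2 by +0.12 ± 0.15, ATG12 by +0.10 ± 0.18 and ATG3 by +0.051 ± 0.12. ATG7 shares 32.2% of its exonic bases with VGLL4 on the other strand, which differed by -0.18 ± 0.16. ATG16L2 shares 20.6% with FCHSD2, also on the other strand.

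The LC3 family members are the ubiquitin-like proteins that conjugation places on the membrane. GABARAP was at 4.07, 3.82, 5.27 and 4.46 with APRIL and at 3.73, 4.05, 4.28 and 3.88 in control. GABARAPL2 was at 3.98, 3.90, 4.85 and 4.05 with APRIL and at 4.16, 4.19, 3.85 and 3.92 in control. For both, APRIL column 3 was the highest library. For GABARAP, APRIL column 4 also lay above all controls, and APRIL columns 1 and 2 lay among them. For GABARAPL2 the other APRIL libraries lay within the control range. The difference of GABARAP was +0.42 ± 0.29, and +0.13 without APRIL column 3. For GABARAPL2 it was +0.16 ± 0.22, and -0.055 without that library. GABARAP shares 30.5% of its exonic bases with AC120057.2 on the same strand and 25.2% with AC120057.3 on the other.

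MAP1LC3B, the family member most used as a marker of autophagosomes, was at 0.53, 0.13, 0.73 and 0.43 with APRIL and at 0.60, 0.49, -0.073 and 0.33 in control. The groups overlapped, the difference was +0.12 ± 0.23, and the reads ran from 18 to 77 per library. MAP1LC3B2, a near-identical gene, has a row of its own that differed by +0.34 ± 0.41, and how reads were divided between the pair is not given in the sources used here, so both values are uncertain. GABARAPL1 was at 3.98, 4.48, 3.20 and 4.26 with APRIL and at 4.35, 2.99, 3.98 and 4.62 in control. With 2 to 38 reads per library it had the widest interval of the set, -0.82 to +0.82, around a difference of -0.0033 ± 0.37.

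**Figure D2:**
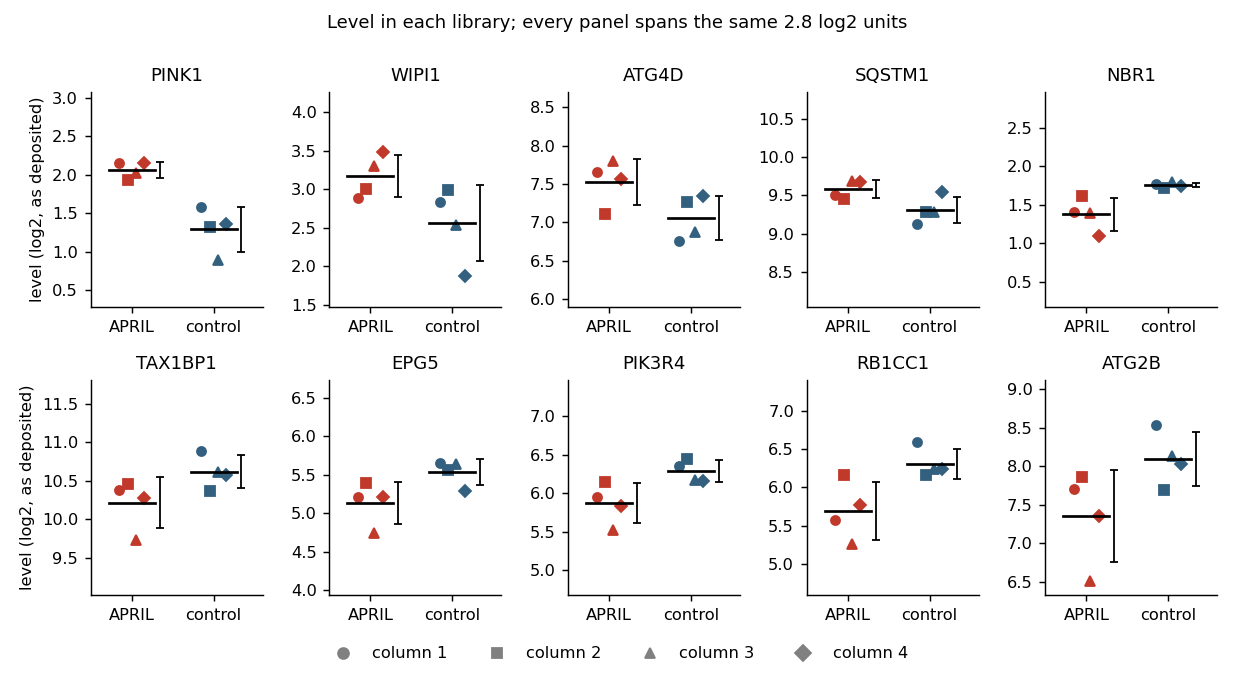
Log2 level in each library (vertical axes, each panel spanning the same 2.8 log2 units) for selected autophagy genes, with the 4 APRIL libraries left of the 4 control libraries a line at each group mean and a bracket for 1 SD to either side (n = 4). The PINK1 groups lie apart, with APRIL libraries at 1.93 to 2.15 and control libraries at 0.89 to 1.59, while APRIL column 3 is the lowest library for ATG2B at 6.51.

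Cargo receptors bind ubiquitin or other tags on one side and LC3 proteins on the other. The 5 receptors split, with SQSTM1 and OPTN positive and NBR1, CALCOCO2 and TAX1BP1 negative. SQSTM1, also called p62, is the receptor for ubiquitylated aggregates and is itself degraded by autophagy. It stood at 9.51, 9.46, 9.69 and 9.67 with APRIL and at 9.13, 9.28, 9.28 and 9.54 in control. Control column 4 lay within the APRIL range, and the other 3 control libraries lay below it. The difference was +0.28 ± 0.12 (unadjusted p = 0.0460 by limma). It was the best covered of the genes at an unadjusted p under 0.05, with 253 to 1374 reads per library, and its difference was +0.10 with the length and GC trend removed. SQSTM1 shares 39.8% of its exonic bases with MRNIP on the other strand.

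NBR1, a receptor related in structure to SQSTM1, was at 1.40, 1.62, 1.39 and 1.09 with APRIL and at 1.77, 1.72, 1.79 and 1.75 in control. Its groups did not overlap, and its control libraries had an SD of 0.032 (n = 4). The difference was -0.38 ± 0.17 (unadjusted p = 0.0502 by limma), and -0.39 without APRIL column 3. The authors' deposited table gives NBR1 a p of 0.0127.

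TAX1BP1, a ubiquitin-binding receptor, was at 10.38, 10.46, 9.73 and 10.28 with APRIL and at 10.89, 10.37, 10.62 and 10.58 in control. APRIL column 3 was the lowest library and control column 1 the highest. The difference of -0.40 ± 0.18 (unadjusted p = 0.0459 by limma) was -0.24 without APRIL column 3 and -0.15 with both of these libraries left out. OPTN, a receptor in mitophagy and in the clearance of bacteria, had 2.55, 2.60, 3.02 and 2.44 with APRIL and 2.40, 2.32, 2.58 and 2.77 in control, at +0.13 ± 0.18. CALCOCO2, also called NDP52, had 6.17, 6.11, 6.02 and 6.02 with APRIL and 6.39, 5.99, 6.34 and 6.23 in control, at -0.15 ± 0.13. The groups of OPTN and CALCOCO2 overlapped.

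Among the mitophagy genes PINK1 had groups that lay apart. PINK1 is the kinase that accumulates on damaged mitochondria and marks them for removal. It was at 2.15, 1.93, 2.03 and 2.15 with APRIL and at 1.59, 1.33, 0.89 and 1.36 in control. All 4 APRIL libraries lay above all 4 control libraries, as for 1 of the 42 genes and 3.62% of all tested genes. The means were 2.07 ± 0.11 with APRIL and 1.29 ± 0.29 in control (SD, n = 4 each), a ratio of 1.71 with a 95% interval of +0.35 to +1.20 on the log2 scale. The unadjusted p was 0.0022 and the adjusted p was 0.400 by limma. Leaving out each library in turn gave +0.64 to +0.88, and removing the length and GC trend gave +0.77. PINK1 reads were few, at 27, 44, 7 and 30 with APRIL and at 13, 7, 7 and 16 in control.

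PINK1 overlaps an antisense gene. PINK1-AS covers 58.1% of the exonic bases of PINK1, 1545 of 2660, on the other strand, and the 2 genes have separate rows. PINK1-AS was at -0.50, -1.14, -1.78 and -1.36 with APRIL and at -0.66, -1.20, -0.68 and -1.19 in control. These groups overlapped, and PINK1-AS did not pass the filter on low values. Its reads were 28, 34, 3 and 17 with APRIL and 18, 8, 16 and 18 in control. They came to 142 in total, against 151 for PINK1. How the shared bases were counted is not given in the sources used here, so the PINK1 value carries that uncertainty.

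BNIP3 and BNIP3L are receptors in the outer mitochondrial membrane, known as targets of hypoxia signalling, and FUNDC1 is another such receptor. BNIP3 differed by +0.43 ± 0.22, and by +0.22 without APRIL column 3. BNIP3 has many processed pseudogenes, among them BNIP3P1 with a row of its own at +0.10 ± 0.26, so its reads are uncertain. BNIP3L had 3.45, 3.31, 2.97 and 3.14 with APRIL and 4.05, 3.23, 3.21 and 3.39 in control. Its groups overlapped, with control column 1 the highest library, at -0.25 ± 0.21, and at -0.061 without control column 1. FUNDC1 differed by +0.35 ± 0.21, and by +0.18 without APRIL column 3. EPG5, the tether that helps autophagosomes fuse with lysosomes, was at 5.21, 5.39, 4.75 and 5.21 with APRIL and at 5.65, 5.57, 5.64 and 5.29 in control. Control column 4 lay within the APRIL range, and the difference was -0.40 ± 0.16 (unadjusted p = 0.0352 by limma), and -0.13 with the length and GC trend removed.

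The role groups with more than 1 gene ran from a median difference of +0.39 for the 4 mitophagy genes to -0.18 for the 7 lipid kinase complex and omegasome genes. Between them lay the LC3 family at +0.14, conjugation at +0.11, membrane expansion at +0.10, initiation at +0.085 and the cargo receptors at -0.15. With the length and GC trend removed these medians were +0.30 for mitophagy, +0.13 for conjugation, +0.12 for the LC3 family, +0.10 for membrane expansion, -0.054 for the cargo receptors, -0.11 for initiation and -0.15 for the lipid kinase complex and omegasome. These medians depended on single libraries. With 1 library left out at a time, mitophagy ran from +0.20, without APRIL column 3, to +0.49, and the LC3 family from +0.050, without control column 3, to +0.24. Initiation turned to -0.025 on leaving out control column 1, and stood at +0.017 without APRIL column 1, at +0.037 without APRIL column 4 and at +0.16 without control column 4. Conjugation was at +0.029 without APRIL column 3, +0.063 without control column 2 and +0.068 without control column 1. The lipid kinase complex and omegasome ran from -0.28, without APRIL column 4, to -0.093, without APRIL column 3. Differences between the role groups were not tested.

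**Figure D3:**
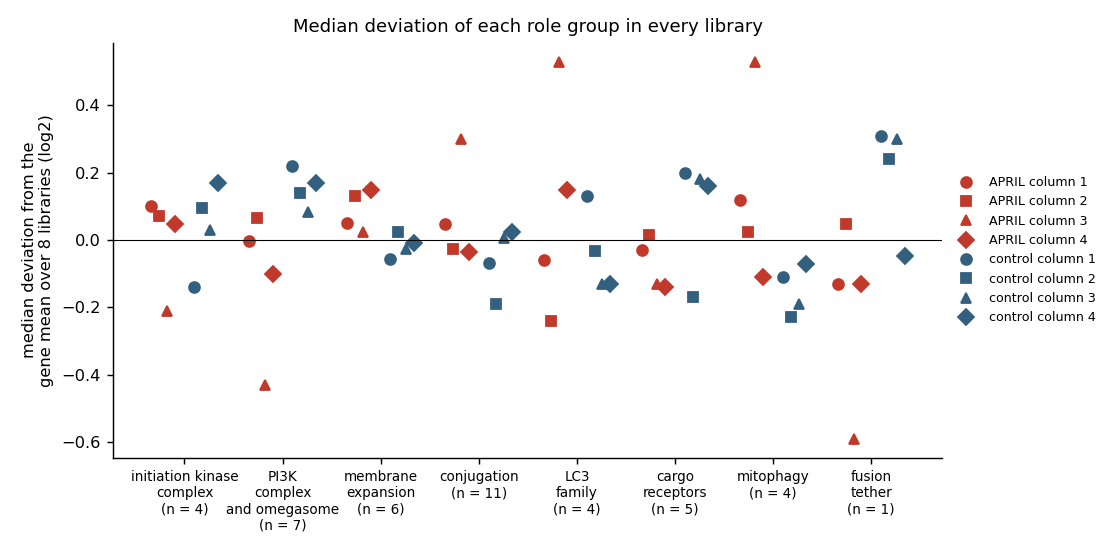
Median deviation of each role group from its genes' means over 8 libraries (vertical axis, log2), with 1 point per library, APRIL libraries in red left of control libraries in blue, and marker shapes that number columns within a group and pair nothing. APRIL column 3 lies at 0.53 for the LC3 family and for mitophagy, 0.30 for conjugation and -0.43 for the lipid kinase complex and omegasome.

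APRIL column 3 was the highest or lowest library for 29 of the 42 genes, against 66.5% of all tested genes. It was highest for 16 and lowest for 13. It was lowest for 7 of 7 lipid kinase complex and omegasome genes, and for 0 of 11 conjugation genes and 0 of 4 LC3 family genes. Without APRIL column 3 the role group medians were +0.20 for mitophagy, +0.16 for membrane expansion, +0.13 for initiation, +0.077 for the LC3 family, +0.029 for conjugation, -0.093 for the lipid kinase complex and omegasome and -0.13 for the cargo receptors.

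Transcript length moved with the differences. Over the 42 genes the difference and the length of the longest annotated transcript had a Spearman's rho of -0.61, and over 10791 tested genes it was -0.54. Genes share libraries and are not independent replicates. The 21 longer genes had 9 positive differences and 12 negative ones, with a median of -0.10, and the 21 shorter genes had 15 positive and 6 negative, with a median of +0.13. ATG2B, EPG5 and RB1CC1, with longest transcripts of 13684, 12698 and 6635 bases, were among the lower genes, while WIPI1 and ATG4D, at 1886 and 1949 bases, were among the higher. PINK1, at 3821 bases, lay near the median of 4022. Without APRIL column 3 the rho was -0.38 over the 42 genes. GC content had a rho of +0.37 over the 42 genes and +0.51 over all tested genes, and without APRIL column 3 these were +0.63 and +0.64. Removing each library's trend with length and GC content left a rho for length of -0.44 over the 42 genes and of -0.025 over all tested genes, so the relation among the 42 genes was not taken out by that step. With the trend removed, the genes higher with APRIL at an unadjusted p under 0.05 stood at +0.77 for PINK1, +0.46 for WIPI1, +0.10 for SQSTM1 and +0.031 for ATG4D. The lower genes stood at -0.44 for ATG2B, -0.34 for RB1CC1, -0.33 for TAX1BP1, -0.24 for PIK3R4 and -0.13 for EPG5.

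**Figure D4:**
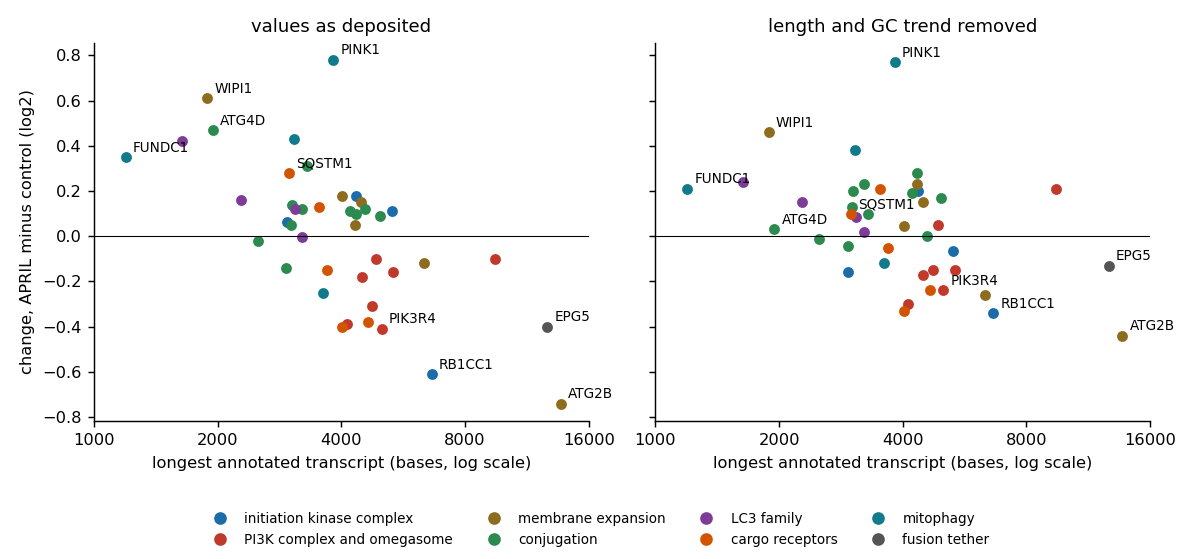
Difference between APRIL and control libraries (vertical axis, log2) against longest annotated transcript length (horizontal axis, bases, log scale) for 42 autophagy and mitophagy genes. Colours mark roles. The left panel shows values as deposited and the right panel values with the length and GC trend removed. Longer genes lie lower, with a Spearman's rho of -0.61 in the left panel and -0.44 in the right. Over 10791 tested genes, which are not drawn, the rho with values as deposited was -0.54.

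The authors' deposited table gives a p under 0.05 to 6 of the 42 genes, against 8.52% of the 11526 genes with a p. These are PINK1 and SQSTM1, higher with APRIL (3.42% of genes were), and RB1CC1, PIK3R4, NBR1 and EPG5, lower with APRIL (5.1% of genes were). In the authors' deposited table PINK1 has a p of 0.0025 and a fold of 1.71. WIPI1 at 0.0741, ATG4D at 0.0638, ATG2B at 0.0766 and TAX1BP1 at 0.0882 do not reach 0.05 in the authors' deposited table.

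Of 90 other genes of the pathway, 83 are in the table and 82 were tested, and 0 passed limma's adjusted threshold. At an unadjusted p under 0.05 there were 7 (8.54%), against 11.9% of all tested genes. Higher with APRIL were 3, the mitochondrial receptor FKBP8 at +0.59 ± 0.21, the mitochondrial transport GTPase RHOT2 at +0.41 ± 0.15 and the nutrient signalling GTPase RRAGA at +0.43 ± 0.16. FKBP8 had levels of 6.83, 6.61, 7.35 and 6.95 with APRIL and of 5.79, 6.56, 6.44 and 6.59 in control, groups that lay close without overlapping. APRIL values lay all above control values for 5 of these 82 genes, against 3.62% of all tested genes. They lay all below for 0 of the 82, against 4.19%. With the length and GC trend removed FKBP8 was at +0.10, RHOT2 at +0.13 and RRAGA at +0.20. Lower with APRIL were 4, the mitochondrial fusion GTPase MFN1 at -0.51 ± 0.21, the mTORC1 inhibitor TSC1 at -0.48 ± 0.21, the tethering subunit VPS41 at -0.29 ± 0.12 and TP53INP1, a p53 target that binds LC3 proteins, at -0.54 ± 0.24. With the trend removed MFN1 was at -0.30, TSC1 at -0.28, VPS41 at -0.065 and TP53INP1 at -0.32. Without APRIL column 3 TSC1 was at -0.26 and MFN1 at -0.34. TP53INP1 had 3 to 20 reads per library, and leaving out single libraries gave -0.70 to -0.34. The median difference of the 24 other mitophagy genes was +0.12, and -0.012 without APRIL column 3. For the 6 transcription factors of autophagy genes it was +0.0091, and +0.068 without that library. For the 22 genes of upstream nutrient signalling it was +0.042, and +0.055 without that library. The 14 genes of fusion with lysosomes had +0.017, and -0.025 without that library. The 16 other core and accessory genes had -0.025, and -0.040 without that library.

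Promoter sequence was read for 36 of the 42 genes from RefSeq (GRCh38.p14), as 300 bases from 250 before to 50 after each start, on both strands. The E-box core CACGTG is bound by TFEB and TFE3, which drive autophagy and lysosome genes, and it holds the ACGTG core of hypoxia-inducible factor sites. It was found for 4 of 36 genes (11.1%), against 13.3% of 8222 genes in the table with a promoter. A gene counted if any of its promoters held the motif. Of 35116 single promoters 7.26% held it, which is a share of promoters and not of genes. The matches of the 4 genes are shown with the E-box in capitals, because they are the autophagy genes whose promoter windows hold this motif. The windows lie on the minus strand at chr3:112561963-112562005 for ATG3, chr10:131982027-131982082 for BNIP3, chr14:55411831-55411876 for ATG14 and chr15:74843298-74843353 for ULK3.
ATG3: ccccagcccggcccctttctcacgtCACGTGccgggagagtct
BNIP3: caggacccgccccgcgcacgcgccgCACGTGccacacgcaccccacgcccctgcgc
ATG14: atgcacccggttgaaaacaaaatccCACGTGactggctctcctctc
ULK3: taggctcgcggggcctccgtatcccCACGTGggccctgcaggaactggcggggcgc
These 4 genes differed by +0.051 ± 0.12 for ATG3, +0.43 ± 0.22 for BNIP3, -0.31 ± 0.20 for ATG14 and +0.063 ± 0.14 for ULK3, so the signs were mixed. The NRF2 motif TGACNNNGC was found for 3 of 36 genes (8.33%), ULK3, MAP1LC3B and CALCOCO2, against 20% of genes in the table with a promoter. The FOXO motif GTAAACA was found for 1 (2.78%), CALCOCO2, against 3.36%, and the ATF4 motif TGATGNAA for 0, against 2.61%. A match is a description of letters in this window and shows no binding. RB1CC1, PINK1, UVRAG, ATG4D, BNIP3L and EPG5 were not searched.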

How the data were processed

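Libraries were made with a polyA-selecting kit that does not mark strand, per the labels' protocols (Illumina TruSeq v2). TopHat2 2.0.13, bcl2fastq and the hg19 build were used, per the submitters' processing notes. For the counter, the annotation and any gene filter, the software is not given in the sources used here. Per the file headers, the authors deposited log2 values after scaling by a TMM factor, with a p-value, a linear fold (a ratio), a log10 p and a signed -log10 p score per gene. From the deposited log2 values, whole reads were recovered as log2 of reads plus 0.5 over a whole-number divisor plus a library constant, for 11141 of 11530 genes (96.6%), and for 0 of 500 genes with moved constants.

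limma 3.58.1 in R 4.3.3, with intensity trend and robust empirical Bayes, tested the log2 values with the group as only term, two-sided, with Benjamini-Hochberg adjustment over 11257 genes. Tested genes had a log2 value no lower than 0, a linear value of 1, in 4 libraries or more. The fit was tested on simulated data. Transcript length, GC content and exon overlaps came from GENCODE v29 and promoters from RefSeq, both on GRCh38, used for names, lengths and sequences only. Summaries were made in Python 3.11.15 (pandas 2.3.3, numpy 2.4.6, scipy 1.17.1), and plots in matplotlib 3.10.9.

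The genes, lists and alternatives were chosen with earlier results of these data known. Values in every library are given for genes with an unadjusted p under 0.05 or groups that do not overlap, the LC3 family, the cargo receptors, and ULK1, RB1CC1, BECN1, PIK3C3, WIPI1, WIPI2, ATG9A, ATG5, ATG7, ATG16L1, PINK1 and BNIP3L. UVRAG, PINK1-AS and FKBP8 were added after their values were seen. The other pathway genes named are those with an unadjusted p under 0.05. Alternatives were 2 filters, a pseudocount of 1, median centring, quantile normalization, each library left out, APRIL column 3 and control column 1 left out, library quality weights, no trend and no robust step, removal of each library's length and GC trend, and voom on recovered reads.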

Additional observations from a re-analysis of the deposited data

Results flagged for a closer look

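Within a group of 4 libraries, 1 library lay far from the other 3 in 5 of 98 groups examined (5.1%), where chance gives about 1 in 20. UVRAG was at 7.45 in APRIL column 3, against 8.16 to 8.28 in the other APRIL libraries. GABARAPL2 was at 4.85 in APRIL column 3, against 3.90 to 4.05 in the others. RRAGA was at 3.10 in APRIL column 3, against 2.69 to 2.76 in the others. ATG9A was at 6.97 in control column 1, against 7.44 to 7.51 in the other control libraries. RHOT2 was at 6.54 in control column 1, against 7.04 to 7.09 in the others. APRIL column 3 is the shallowest library, at 928040 recovered reads, and its part in these values was not tested beyond leaving it out.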

How the results depend on the processing

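No paired analysis was possible because the columns carry no replicate numbers, so the planned fit with a replicate block was not run. The count of 0 genes at an adjusted p of 0.05 held in all 18 alternatives run. Quality weights called 4 genes of the whole table, none of them among the 42. At an unadjusted p under 0.05 the genes higher with APRIL numbered 2 without APRIL column 3 and control column 1, 2 with the length and GC trend removed, and 1 to 4 with single libraries left out. The lower genes numbered 1 without both libraries and 2 to 7 with single libraries left out. The median difference of the 42 genes was 0.022 without both libraries and 0.018 to 0.12 with single libraries left out. Initiation was at -0.11 with the trend removed. Membrane expansion was at 0.082 to 0.16 with single libraries left out. Cargo receptors were at -0.0099 and mitophagy at 0.050 with the stricter filter, which kept 38 of the 42 genes. It left out PINK1, BNIP3, NBR1 and MAP1LC3B, so these medians cover fewer genes. Mitophagy was at 0.19 without both libraries. Of the 42 genes, 25 kept their sign in every alternative that tested them and 17 did not, in 46 of 752 values. With the trend removed, signs turned for ULK1 (-0.064), ULK3 (-0.16), BECN1 (0.048), PIK3C3 (0.21) and GABARAPL1 (0.017). Without both libraries they turned for PIK3C3 (0.078), ATG2A (0.057), ATG7 (-0.039), ATG10 (-0.12), GABARAPL1 (0.38), GABARAPL2 (-0.010), OPTN (-0.027) and BNIP3L (0.023). With quality weights they turned for BECN1 (0.046), PIK3C3 (0.035), ATG2A (0.059), VMP1 (-0.011), ATG7 (-0.12), ATG12 (-0.025), GABARAPL1 (0.022), OPTN (-0.046) and BNIP3L (0.034). With voom they turned for ATG2A (0.083) and GABARAPL1 (0.083). With single libraries left out, ULK1 ran from -0.036 to 0.23, ULK3 from -0.014 to 0.13, PIK3C3 from -0.21 to 0.0039, AMBRA1 from -0.28 to 0.032 and ATG2A from -0.31 to 0.22. VMP1 ran from -0.028 to 0.11, ATG3 from -0.0012 to 0.10, ATG4A from -0.27 to 0.12, ATG10 from -0.044 to 0.33 and ATG12 from -0.057 to 0.19. MAP1LC3B ran from -0.022 to 0.23, GABARAPL1 from -0.34 to 0.26 and GABARAPL2 from -0.055 to 0.26. The cause of the turned signs was not tested. Depth limits PINK1, WIPI1 and GABARAPL1 most, with under 10 reads in the lowest library, and 8 of the 42 genes had 100 or more reads in every library.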
